A study of Mus musculus with 14 samples.

Results

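The 10 genes described here encode transcription factors that give neurons their identity: the Brn3 genes Pou4f1, Pou4f2 and Pou4f3, the Onecut genes Onecut1, Onecut2 and Onecut3, the AP-2 genes Tfap2a, Tfap2b and Tfap2d, and the LIM homeodomain gene Isl1. They were chosen by symbol as neuron identity factors, with measured differences of these same libraries in view, and each of the 10 symbols matched 1 of the 55359 Ensembl gene IDs in the count tables. Which measured values entered the choice is not recorded, so both layer comparisons are treated as used by it: their values are given as a description with no p, and the genes past the threshold are counted only beside the share over all genes. The comparisons of treatment were tested, over all genes, but the choice of the 10 genes was not independent of them.

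RNA was measured by sequencing of poly-A RNA in the superior colliculus, the part of the midbrain roof that receives retinal axons in its superficial layers and somatosensory and other input in its deep layers. All pups were ICR/CD-1 mice at postnatal day 6 that had received an injection of 0.3 to 0.5 µL into the vitreous of the eye at postnatal day 0 to 1. The 4 groups were saline deep (n = 3 libraries), saline superficial (n = 3), carbenoxolone deep (n = 4) and carbenoxolone superficial (n = 4). Carbenoxolone, written cbx below, blocks gap junctions and was given at 50 mM to abolish the waves of spontaneous retinal activity. Each library was a pool of 3 brains, so the spread between libraries is that between pools and not between single pups. The drug was given to the eye, while the RNA is that of the colliculus. Uninjected pups are not among the 4 groups, so saline is the reference throughout.

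Brn3 factors bind DNA through a POU-specific domain and a POU homeodomain, and are best known for the differentiation, survival and axon growth of retinal ganglion cells, of sensory ganglion neurons and of hair cells. Onecut factors pair a CUT domain with a homeodomain and act in retinal horizontal cells, motor neurons and other early-born neurons. AP-2 factors bind as dimers through a basic helix-span-helix domain and act in neural crest, retinal amacrine cells and the midbrain roof. Isl1 works with Pou4f2 in retinal ganglion cells and specifies motor and sensory neurons.

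The bases just before the start of 4 of these genes are shown, 2 from the Brn3 and 2 from the AP-2 family. Pou4f1 and Tfap2b had smaller layer differences, of similar size, while Pou4f2 and Tfap2d had larger ones. The 4 were picked as examples, since the genes did not form separate kinds in both treatments. After cbx Pou4f2, at -2.04 (superficial minus deep, log2 scale), lay between Onecut2 at -1.89 and Onecut1 at -2.47. The sequences are the 250 bases upstream of the RefSeq gene start in build GRCm38.p6, read 5′ to 3′ on the strand of the gene. CpG dinucleotides are in capitals.
Pou4f1, minus strand of chr14:104468000-104468249: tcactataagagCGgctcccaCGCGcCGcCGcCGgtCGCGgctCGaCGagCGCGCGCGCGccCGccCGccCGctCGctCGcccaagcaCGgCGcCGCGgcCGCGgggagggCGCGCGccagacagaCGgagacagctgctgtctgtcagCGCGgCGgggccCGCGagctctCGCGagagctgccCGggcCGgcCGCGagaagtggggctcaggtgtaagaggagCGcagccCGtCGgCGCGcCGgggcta
Pou4f2, minus strand of chr8:78436648-78436897: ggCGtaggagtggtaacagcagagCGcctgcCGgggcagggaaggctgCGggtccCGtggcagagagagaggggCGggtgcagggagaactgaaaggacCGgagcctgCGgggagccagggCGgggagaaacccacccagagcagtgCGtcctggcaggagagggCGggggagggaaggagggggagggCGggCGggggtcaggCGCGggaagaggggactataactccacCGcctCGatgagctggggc
Tfap2b, plus strand of chr1:19211804-19212053: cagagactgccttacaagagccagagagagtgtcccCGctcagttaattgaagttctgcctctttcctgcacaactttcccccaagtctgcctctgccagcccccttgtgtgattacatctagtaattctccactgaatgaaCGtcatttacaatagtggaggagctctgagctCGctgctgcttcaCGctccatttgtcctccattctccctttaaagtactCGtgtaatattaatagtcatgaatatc
Tfap2d, plus strand of chr1:19102772-19103021: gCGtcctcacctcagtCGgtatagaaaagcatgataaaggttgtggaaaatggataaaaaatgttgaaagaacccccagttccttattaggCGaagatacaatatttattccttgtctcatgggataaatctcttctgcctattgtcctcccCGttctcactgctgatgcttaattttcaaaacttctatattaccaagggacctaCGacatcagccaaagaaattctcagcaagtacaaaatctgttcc

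The windows of both Brn3 genes were rich in G and C, at 78.0% for Pou4f1 and 70.8% for Pou4f2, beside a median of 52.4% over 32851 RefSeq windows of the same length. The AP-2 windows shown were at 46.4% for Tfap2b and 39.6% for Tfap2d. RefSeq gives Tfap2d 3 start sites, the first of which is shown, and the windows of the others had 38.8% and 55.2%. The 2 windows of Tfap2a, not shown, had 47.6% and 60.4%. Pou4f1 had 47 CpG dinucleotides and Pou4f2 17, beside a median of 6 over all windows, and Tfap2b had 5 and Tfap2d 5. On either strand none of the 4 windows held the letters GCCNNNGGC (an AP-2 motif, in 13.7% of all windows), ATTGAT (a Onecut motif, 6.72%), AATTAAT (a Brn3 motif, 2.46%) or CTAATG (a LIM homeodomain motif, 6.36%). RefSeq windows were used for 7 of the 10 genes. Those of Pou4f3 and Onecut2, on chromosome 18, were left out by rule, and none was found for Onecut3.

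Libraries held 32004952 to 48776827 counts. Levels are CPM, the counts scaled to a common library size with TMM factors, and 3 counts, the most that a count of 0 allows, corresponded to 0.0615 to 0.0937 CPM for counting error only. Saline pool 1 had almost no Xist RNA (0.572 CPM deep, 1.94 CPM superficial) and cbx pool 4 had no counts of the Y-linked gene Ddx3y. These 2 pools were each of one sex, male for saline pool 1 and female for cbx pool 4, and results that rest on them are given with and without them. In the other pools Ddx3y was at 30.5 to 45.3 CPM after saline and 16 to 38.6 CPM after cbx. Leaving out the 2 pools therefore need not even out the sexes between treatments. As marks of the tissue, 8 pan-neuronal genes together reached 4383 to 5221 CPM in every library, and 10 meningeal fibroblast genes reached 692 to 1754 CPM in superficial but 51.8 to 95.6 CPM in deep libraries.

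Brn3 RNA was concentrated in the deep layers. Pou4f1, which marks midbrain roof, habenula and sensory ganglion neurons, stood at 126, 120 and 126 CPM in the saline deep libraries and at 40.3, 38.8 and 50.1 CPM in the saline superficial ones. After cbx it stood at 109, 109, 110.5 and 119 CPM in deep and 41.5, 44.5, 45.2 and 38.4 CPM in superficial libraries. Every deep library thus lay above every superficial one. The fitted layer difference, superficial minus deep on the log2 scale, was -1.52 (SE 0.088) after saline and -1.40 (SE 0.076) after cbx, a deep level 2.88 and 2.64 times the superficial one.

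Pou4f2, the Brn3 gene on which most retinal ganglion cells depend, was more skewed to the deep layers than Pou4f1. Saline deep libraries had 57.6, 53.0 and 52.4 CPM and saline superficial libraries 9.71, 6.73 and 10.01 CPM. After cbx the deep libraries had 67.0, 61.7, 59.3 and 60.6 CPM and the superficial libraries 13.4, 17.4, 17.7 and 12.1 CPM. The 4 groups did not overlap at any point and ordered as cbx deep, saline deep, cbx superficial and saline superficial. The layer difference was -2.62 (SE 0.15) after saline and -2.04 (SE 0.12) after cbx.

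Pou4f3, known for its role in hair cells of the inner ear, was the scarcest Brn3 gene, also per length. It averaged 3.08 CPM (SD 0.68, n = 3) in saline deep and 0.277 CPM (SD 0.017, n = 3) in saline superficial libraries, where it had 9 to 11 counts. The cbx means were 4.11 CPM (SD 0.80) in 4 deep and 0.507 CPM (SD 0.21) in 4 superficial libraries. Its layer difference was -3.46 (SE 0.34) after saline and -3.03 (SE 0.27) after cbx.

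The Onecut genes were low throughout and split in how steeply they fell off toward the surface. Onecut1 averaged 2.89 CPM (SD 0.11, n = 3) in saline deep libraries and had 1.31, 0.903 and 1.82 CPM in saline superficial ones, a layer difference of -1.10 (SE 0.39). After cbx the deep mean was 2.82 CPM (SD 0.64, n = 4) and the superficial values were 0.0610, 0.455, 0.745 and 0.716 CPM, the first from 2 counts, giving -2.47 (SE 0.38). Onecut2 had layer differences of -1.47 (SE 0.20) and -1.89 (SE 0.18), with 7.996 CPM (SD 0.11, n = 3) in saline deep and 2.88 CPM (SD 0.91, n = 3) in saline superficial libraries. Onecut3 had the largest fall of the 9 tested genes after saline, -3.75 (SE 0.38), from 2.92 CPM (SD 0.31, n = 3) to 0.214 CPM (SD 0.13, n = 3), a superficial level of 3 to 13 counts. After cbx its difference was -3.56 (SE 0.31).

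Tfap2b dominated the AP-2 genes and the whole set. It stood at 472, 521 and 536 CPM in saline deep and at 168, 168 and 171 CPM in saline superficial libraries, and took 68.5% to 76.1% of all counts of the 10 genes in every library. After cbx it stood at 548, 538, 530 and 482 CPM deep and 164, 180, 168 and 164 CPM superficial. Its layer difference was -1.59 (SE 0.071) after saline and -1.63 (SE 0.062) after cbx, the smallest standard errors of the set.

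Tfap2d, which is needed for neurons of the inferior colliculus to survive, was a low gene with a steep layer difference. It had 9.54, 9.97 and 10.6 CPM in saline deep and 1.26, 1.19 and 1.03 CPM in saline superficial libraries, a difference of -3.11 (SE 0.26). After cbx the deep libraries had 9.91, 11.1, 12.2 and 10.7 CPM and the superficial ones 0.427, 0.711, 0.894 and 1.61 CPM, a difference of -3.56 (SE 0.23). The cbx superficial values were spread out while the saline ones stayed close together. Tfap2a, best known for neural crest and skin, averaged 6.19 CPM (SD 0.88, n = 3) in saline deep and 2.30 CPM (SD 0.32, n = 3) in saline superficial libraries, a difference of -1.43 (SE 0.26), and -1.24 (SE 0.22) after cbx. The reads of Tfap2a may include those of 3 antisense genes, which had at most 8 counts of their own in a library. Those of Tfap2d may include those of 1 antisense gene with at most 19 counts, where Tfap2d had 14 to 63 counts in superficial libraries. A pseudogene locus within Tfap2d overlaps none of its exons.

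Isl1 was at the floor. It had 0 counts in 11 of 14 libraries and 4 counts in all, with at most 2 in a library, so that no layer or treatment difference could be measured. It did not pass the filter on low counts and the other 9 genes did. Pou4f2, its partner in retinal ganglion cells, had 261 to 3200 counts in the same libraries.

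**Figure D1:**
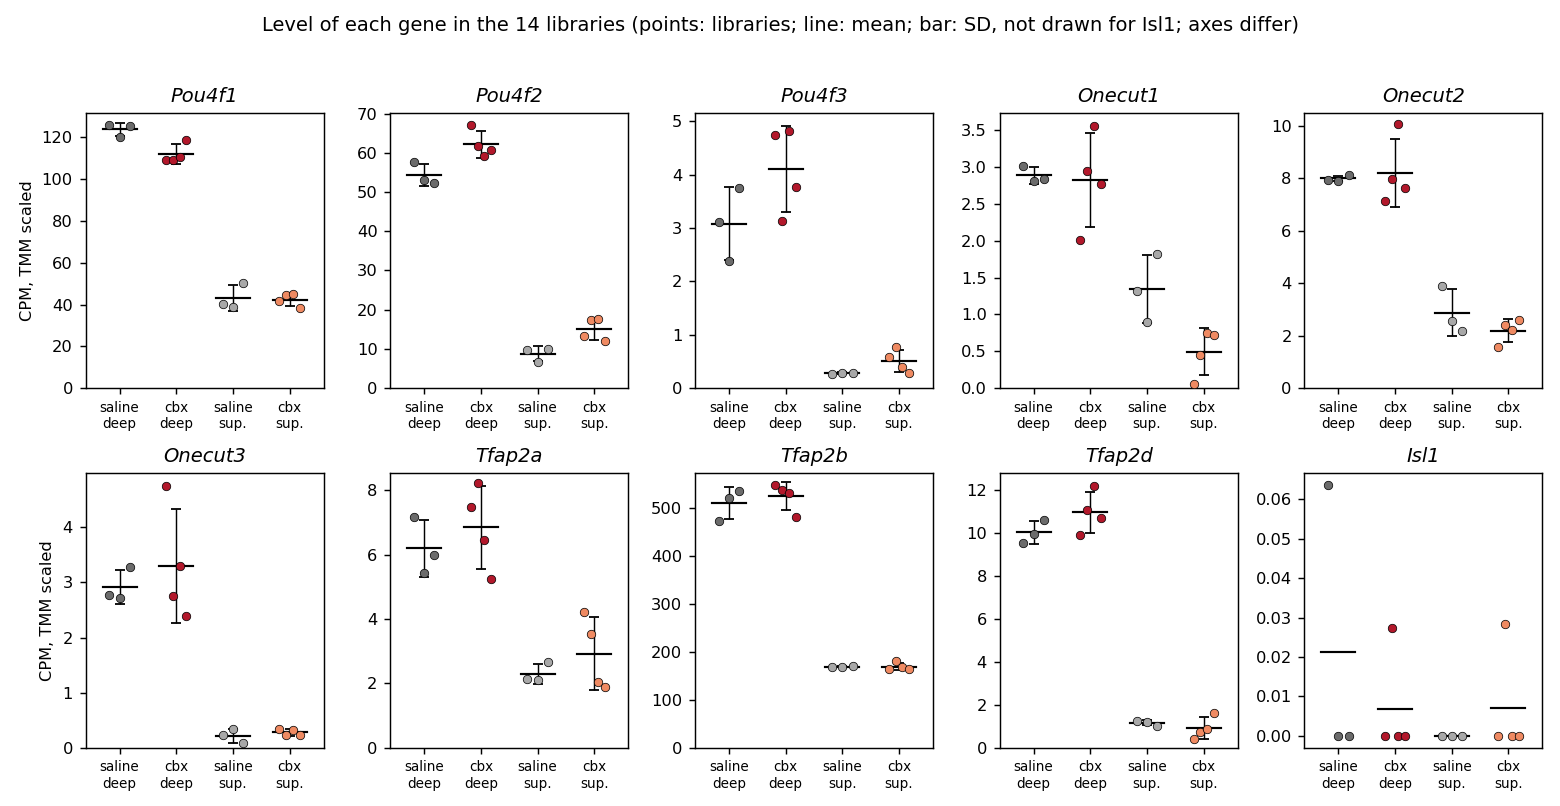
Level of each of the 10 genes in CPM (vertical axes, from 0 and different for each gene) in the 14 libraries, by group (horizontal axis: saline deep, cbx deep, saline superficial, cbx superficial), with the mean as a line and the SD as a bar where drawn. Deep libraries lie above superficial ones for the 9 genes other than Isl1, whose 14 libraries hold 4 counts in all.

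After saline 8 of the 9 tested genes passed edgeR's threshold as lower in the superficial layer, and after cbx all 9 did, where 8.73% and 14.1% of all 20330 tested genes were called lower. The exception was Onecut1 after saline, which passed under 6 of 14 alternatives. These were the pool as a block, no low-count filter, DESeq2, limma-voom, only the groups compared, and saline superficial replicate 3 left out. The superficial and deep libraries did not overlap for any of the 9 genes in either treatment, which held for 16.5% of all genes after saline and 13.0% after cbx in this direction. The median difference of the 9 genes was -1.59 after saline and -2.04 after cbx, beside 0.04 and 0.02 over all genes. Nothing is read from these counts, since the layer values are taken as part of the choice. In bulk tissue, fewer cells that contain an RNA and less of it per cell cannot be told apart.

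Libraries that share a number within a treatment deviated together, so the layer ratio was also taken within each of the 7 numbers. Since the layers did not overlap within a treatment, all 7 ratios of each of the 9 genes had to point the same way, and only their sizes are described. Pou4f1 was 2.45 to 3.12 times higher in the deep library and Tfap2b 2.81 to 3.34 times, which are narrow ranges. Pou4f2 was 5.24 to 7.88 times higher in the 3 saline numbers and 3.36 to 5.02 times higher in the 4 cbx numbers, ranges that did not meet. Tfap2d ranged from 6.66 to 23.2 times and Pou4f3 from 4.09 to 13.4 times. Onecut1 had one of the widest spreads, at 1.56 to 3.11 times in the saline numbers and 3.87 to 33 times in the cbx numbers. Its highest ratio, in cbx number 1, rested on 2 superficial counts. The saline and cbx ranges of Onecut1 thus did not meet either, and the direction was opposite to that of Pou4f2. The share of all genes with such ranges was not determined, and in the reported fit the interaction below passed for neither gene.

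**Figure D2:**
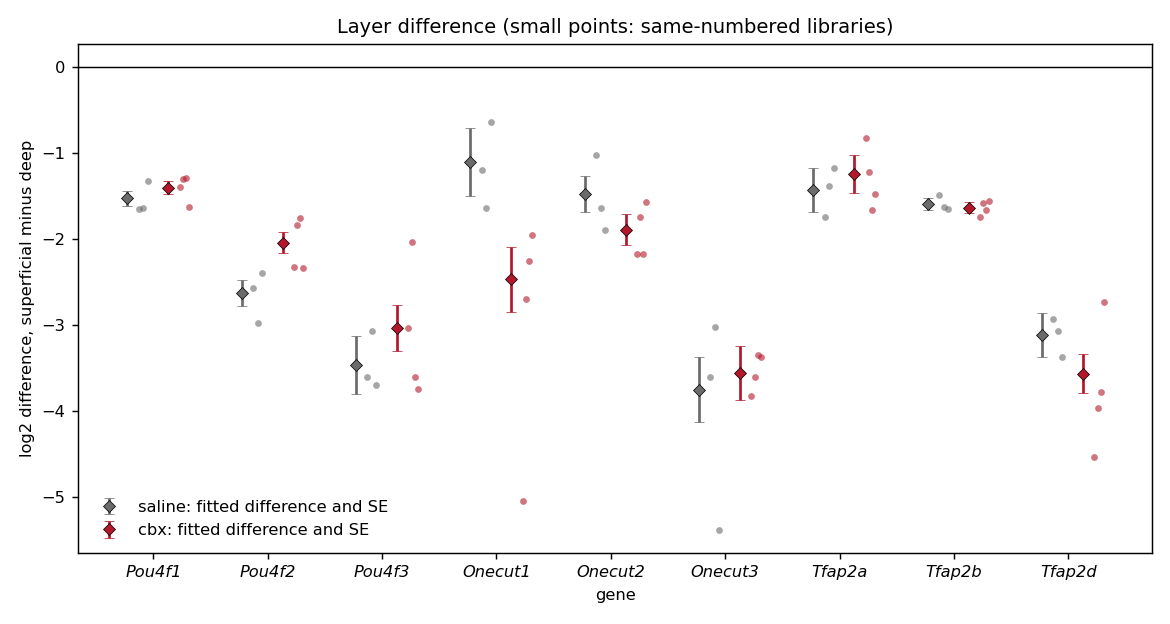
Layer difference on the log2 scale (vertical axis, superficial minus deep) for the 9 tested genes (horizontal axis), with the fitted value and its SE as diamonds and bars and the 7 same-numbered library pairs as small points, grey for saline and red for cbx. All points lie below 0, with Pou4f1 and Tfap2b tightly grouped and the 3 saline points of Pou4f2 below its 4 cbx points. For Onecut1 the 3 saline points lie above its 4 cbx points.

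Levels of different genes can be compared only per length, here CPM per kb of exon. In saline deep libraries the order was Tfap2b at 80.4 (SD 5.3, n = 3), Pou4f1 at 26.5 (SD 0.66), Pou4f2 at 17.0 (SD 0.88) and Tfap2d at 5.14 (SD 0.28). Pou4f3 at 1.28 (SD 0.28) and Tfap2a at 1.26 (SD 0.18) followed and did not differ beyond their spread. Onecut1 at 0.702 (SD 0.028), Onecut3 at 0.612 (SD 0.065) and Onecut2 at 0.492 (SD 0.0070) came last before Isl1. The Onecut genes thus lay together at the low end, and the values of Onecut1 and Onecut3 overlapped.

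In saline superficial libraries the first genes kept that order at lower values, with Tfap2b at 26.7 (SD 0.22, n = 3), Pou4f1 at 9.21 (SD 1.3) and Pou4f2 at 2.75 (SD 0.57) CPM per kb. Below them the order changed: Tfap2d at 0.592 (SD 0.060) and Tfap2a at 0.469 (SD 0.064) were followed by Onecut1 at 0.327 (SD 0.11), Onecut2 at 0.178 (SD 0.056), Pou4f3 at 0.115 (SD 0.0073) and Onecut3 at 0.0449 (SD 0.027). Pou4f3 and Onecut3, which preceded Onecut2 in the deep layers, followed it here. The libraries of Tfap2d, Tfap2a, Onecut1 and Onecut2 overlapped from one neighbour to the next in this order, while Pou4f3 lay below all 3 values of Onecut2.

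After cbx the deep order was the same except that Onecut3 at 0.691 (SD 0.22, n = 4) and Onecut1 at 0.686 (SD 0.15) were level. In cbx superficial libraries Tfap2b stood at 26.7 (SD 1.2, n = 4), Pou4f1 at 9.08 (SD 0.66) and Pou4f2 at 4.72 (SD 0.88) CPM per kb. Tfap2a at 0.595 (SD 0.23) and Tfap2d at 0.466 (SD 0.26) followed and did not differ beyond their spread, nor did Pou4f3 at 0.211 (SD 0.089), Onecut2 at 0.135 (SD 0.027) and Onecut1 at 0.120 (SD 0.077). Onecut3 was again lowest, at 0.0584 (SD 0.012).

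The balance of the 2 main Brn3 genes shifted with both layer and treatment. Pou4f2 per Pou4f1, as a ratio of CPM per kb, was 0.609 to 0.667 in saline deep and 0.744 to 0.895 in cbx deep libraries. In the superficial layer it was 0.253 to 0.352 after saline and 0.458 to 0.570 after cbx. The treatments did not overlap in either layer, and deep libraries lay above superficial ones. The ratio was chosen after its values were seen and was not tested.

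**Figure D3:**
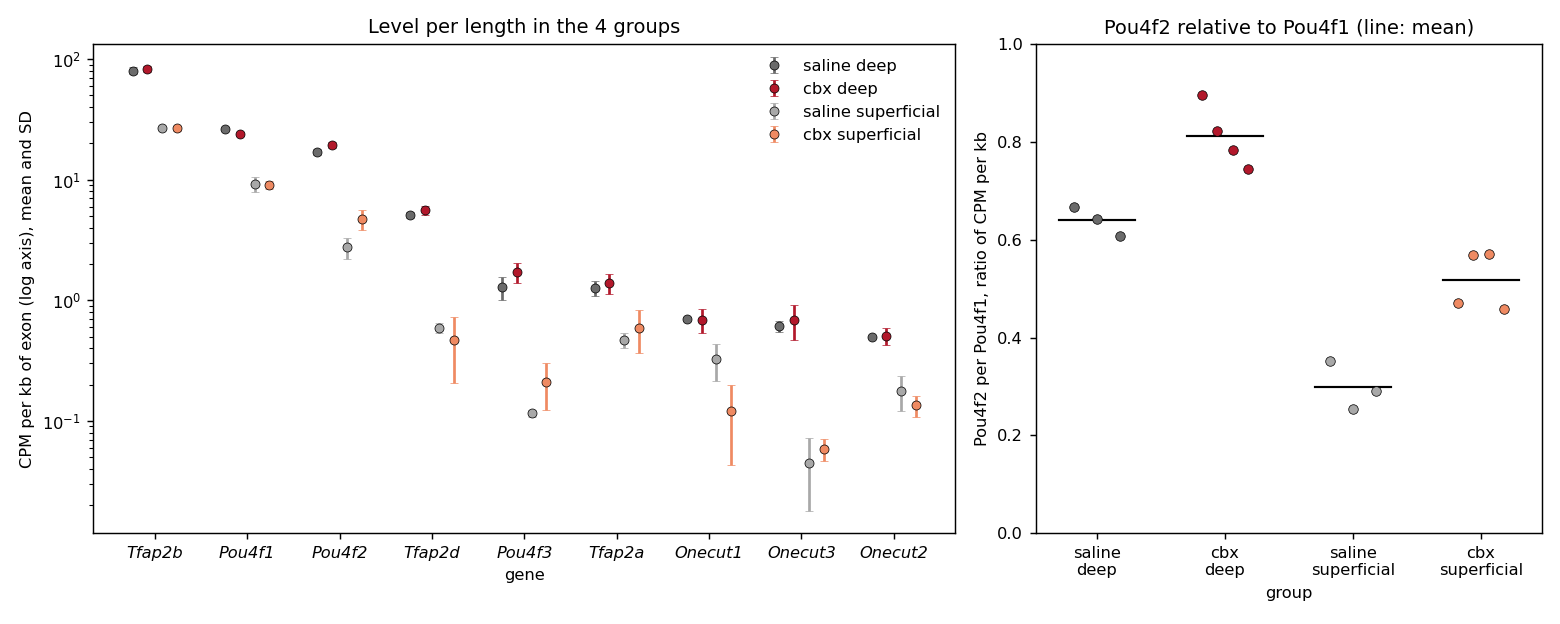
Left, mean and SD of CPM per kb of exon on a log axis for the 9 genes other than Isl1, ordered by saline deep level, in the 4 groups. Right, the ratio of Pou4f2 to Pou4f1 per length in each library (points) with group means (lines), which is lowest in saline superficial (0.253 to 0.352) and highest in cbx deep libraries (0.744 to 0.895).

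The comparison of cbx with saline in the superficial layer asked whether the drug in the eye changed these factors in the layer that receives retinal axons. Retinal waves themselves were not measured in these libraries. Pou4f2 rose and was the only one of the 9 tested genes to pass, beside 4.33% of all genes. The 4 cbx libraries averaged 15.1 CPM (SD 2.8) and the 3 saline libraries 8.82 CPM (SD 1.8). The fitted rise was 0.78 (SE 0.14) on the log2 scale, or 1.72-fold (edgeR quasi-likelihood adjusted p = 0.00607). All 4 cbx libraries, at 12.1 to 17.7 CPM, lay above all 3 saline libraries, at 6.73 to 10.01 CPM.

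The call did not rest on 1 library: with each superficial library left out in turn the difference was 0.62 to 0.88. Without the 2 pools of one sex it was 0.95 (SE 0.16, edgeR adjusted p = 0.0215). When the fit was made on superficial libraries alone it was of the same size, 0.77 (SE 0.17), and did not pass (edgeR adjusted p = 0.0634).

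Pou4f1 and Tfap2b, the most abundant genes of the set, had differences of -0.02 (SE 0.082, edgeR adjusted p = 0.912) and -0.001 (SE 0.066, edgeR adjusted p = 0.997). Their standard errors were the smallest of the 9 genes, so changes as large as that of Pou4f2 would have been many standard errors from 0. Pou4f3 had a difference of 0.85 (SE 0.36, edgeR adjusted p = 0.188) as large as that of Pou4f2, on 11 to 27 counts after cbx and 9 to 11 after saline, and its groups overlapped.

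Onecut1 had the largest difference of the 9 genes and did not pass, at -1.41 (SE 0.41, edgeR adjusted p = 0.0567). Its cbx superficial libraries, at 0.0610 to 0.745 CPM, lay below its saline ones, at 0.903 to 1.82 CPM. The groups of Pou4f2 and Onecut1 alone did not overlap, 2 of 9 genes, beside 17.3% of all genes. Onecut1 lay close to the threshold in the reported fit and passed under 5 of 15 alternatives, and then 2 of the genes were called. These were the DESeq2 Wald test (adjusted p = 0.00521) and the other low-count filters (none, or 1 CPM in 3 libraries). The remaining ones left out cbx superficial replicate 3 or 4. Under 10 alternatives it did not pass. Among these were only the groups compared (edgeR adjusted p = 0.199) and saline superficial replicate 3 left out (edgeR adjusted p = 0.2025). Leaving out the 2 pools of one sex gave -1.64 (SE 0.56, edgeR adjusted p = 0.193). Without cbx superficial replicate 1, which held 2 counts, the difference was -1.06 (SE 0.30, edgeR adjusted p = 0.0565).

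The other Onecut and AP-2 genes gave differences within about 2 standard errors of 0: -0.38 (SE 0.20) for Onecut2, 0.37 (SE 0.44) for Onecut3, 0.33 (SE 0.25) for Tfap2a and -0.32 (SE 0.28) for Tfap2d, with edgeR adjusted p = 0.293, 0.671, 0.487 and 0.553. The Onecut genes did not share a sign. Over the 9 genes 4 differences were above and 5 below 0, and their median was -0.001, beside 0.009 over all genes.

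In the same libraries marks of other cells moved, where 4.33% of all genes were called in either direction. Of 10 meningeal fibroblast genes 4 rose and 0 fell, and their summed level was 692 to 1037 CPM after saline and 899 to 1754 CPM after cbx. Of 5 red blood cell genes 1 rose, and their sum was 149 to 230.5 CPM and 238 to 388 CPM. Of 4 tested genes of thalamus and pretectum, which border the colliculus and where Tcf7l2 is prominent, 0 were called, with sums of 189 to 218 and 185 to 226 CPM. Tcf7l2 itself was at 0.31 (SE 0.096) with no overlap, Lhx2 at -0.17 (SE 0.099) and Prkcd at 0.13 (SE 0.086). Of 4 tested genes of peripheral sensory neurons, which contain Pou4f1 and Isl1, Avil fell by 1.00 on the log2 scale (SE 0.26), with sums of 4.71 to 7.12 and 4.27 to 6.54 CPM. No listed gene of these 4 lists was at 0 in all libraries of a group. Of 8 pan-neuronal genes 1 rose, Elavl4 by 0.24 (SE 0.067, edgeR adjusted p = 0.0478), and 0 fell. Of 4 inhibitory genes 1 fell, Gad2 by 0.34 (SE 0.064, edgeR adjusted p = 0.00774), and 0 rose, while 0 of 3 excitatory genes were called. The part of these cells in the Pou4f2 difference was not tested.

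In the deep layer 0 of 9 genes passed edgeR, beside 1.83% of all genes. DESeq2 and limma-voom also called 0 of the 9, beside 901 and 304 genes in all. An unadjusted p under 0.05 with edgeR was reached by 0 of the 9 and by 3118 of all 20330 genes. Pou4f2 averaged 62.2 CPM (SD 3.4) in the 4 cbx and 54.4 CPM (SD 2.8) in the 3 saline libraries, with no overlap and a difference of 0.19 (SE 0.12, edgeR adjusted p = 0.510). Pou4f1 was the reverse, at 112 CPM (SD 4.7) with cbx and 124 CPM (SD 3.1) with saline, again with no overlap and a difference of -0.15 (SE 0.080, edgeR adjusted p = 0.408). These 2 genes were the only ones of the 9 whose treatments did not overlap, beside 16.0% of all genes. Both differences were under 2 standard errors from 0.

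Pou4f3 had the largest deep difference, 0.42 (SE 0.25, edgeR adjusted p = 0.457), and the other 6 genes lay between -0.04 for Onecut1 and 0.18 for Onecut3. Over the 9 genes 7 differences were above and 2 below 0, with a median of 0.13 beside 0.007 over all genes. Onecut1, with the largest superficial difference, had deep values of 2.81 to 3.02 CPM after saline and 2.01 to 3.56 CPM after cbx.

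**Figure D4:**
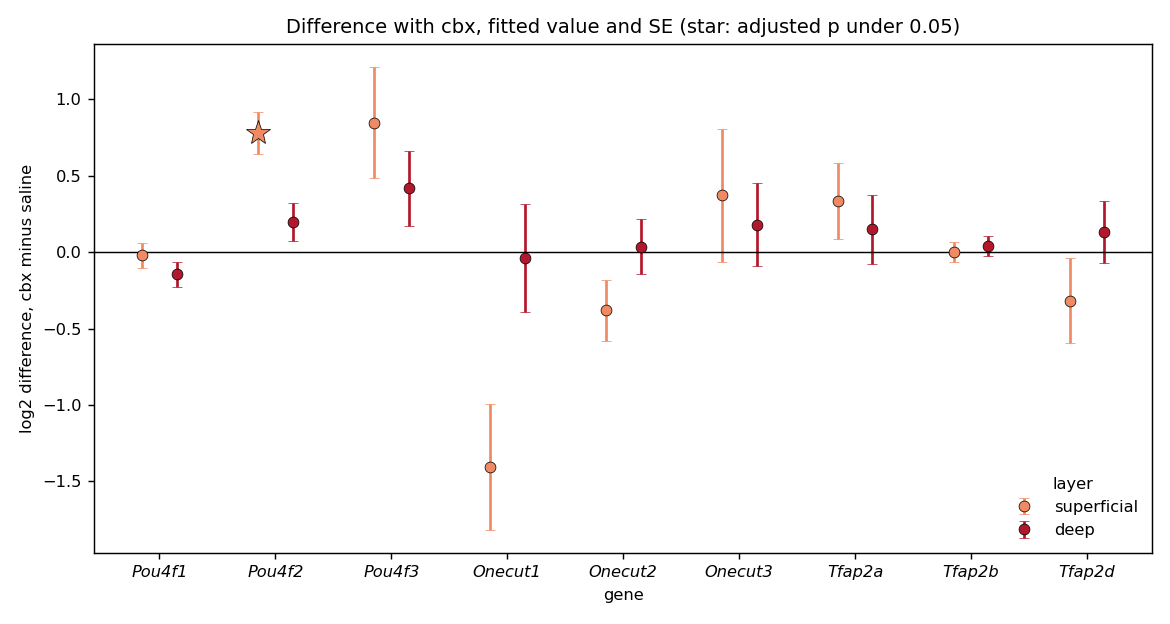
Difference between cbx and saline on the log2 scale (vertical axis, cbx minus saline), fitted value and SE, for the 9 tested genes (horizontal axis) in the superficial and the deep layer. The star marks the 1 difference with an adjusted p under 0.05, Pou4f2 in the superficial layer at 0.78, while Pou4f1 and Tfap2b lie near 0 with short bars.

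Whether cbx acted differently on the layers was asked with the interaction, the superficial minus the deep treatment difference. In the fit that takes the libraries as independent, none of the 9 genes passed edgeR and 0.00% of all genes did, 0 of 20330. In that fit 1699 genes had an unadjusted p under 0.05. DESeq2 called 60 genes and limma-voom 0. Pou4f2 had the smallest p of the 9, with an interaction of 0.58 (SE 0.19, edgeR adjusted p = 0.426), followed by Onecut1 at -1.37 (SE 0.54, edgeR adjusted p = 0.526). The Pou4f2 rise in the superficial layer is therefore not shown to differ from its deep difference. Without a low-count filter the interaction of Pou4f2 had the same size, 0.59, and passed (edgeR adjusted p = 0.00707). With the pool as a block, which pairs the layers, the interaction of Pou4f2 did not pass (0.58, edgeR adjusted p = 0.193). That paired edgeR fit called 61 genes in all and none of the 9, so the count over all genes depended on the pairing. The median over the 9 genes was 0.12, beside 0.002 over all genes.

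Relatives and partners of the factors came from lists that were also drawn up with results of these libraries known. Among 8 tested other POU genes, Pou6f1 fell in the superficial layer after cbx by 0.34 (SE 0.075, edgeR adjusted p = 0.0153), and 0 were called in the deep layer, where Pou6f1 was at -0.28 (SE 0.075, edgeR adjusted p = 0.0585). None of 4 other CUT genes, 1 other AP-2 gene, 6 other LIM homeodomain genes, 9 LIM cofactors and 5 AP-2 cofactors was called with cbx in either layer, and the medians of these lists ran from -0.12 to 0.30. Pou4f2 thus stood beside Pou6f1 as the called POU genes of the superficial comparison, with opposite signs.

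Genes of the retinal ganglion cell program around Pou4f2 and Isl1, a list that is not only of genes under them and also holds Atoh7, were mostly not called with cbx. Of 17 tested, 1 fell in the superficial layer, the early B-cell factor gene Ebf3, by 0.30 (SE 0.064, edgeR adjusted p = 0.0146). In the deep layer 1 fell, Rbpms, an RNA-binding protein used to mark retinal ganglion cells, by 0.57 (SE 0.12, edgeR adjusted p = 0.0213). The synuclein gene Sncg and the Iroquois gene Irx6 were at -0.80 (SE 0.26) and 0.48 (SE 0.17) in the superficial layer and did not pass. The list's median was -0.05 in the superficial and 0.03 in the deep layer, and 0 of its genes rose in either.

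Of 19 tested patterning factors of the midbrain roof, 2 rose with cbx in the superficial layer, Meis1 by 0.37 (SE 0.091, edgeR adjusted p = 0.0265) and Sox14 by 0.41 (SE 0.11, edgeR adjusted p = 0.0445). In the deep layer 2 fell, Pax3 by 0.53 (SE 0.096, edgeR adjusted p = 0.00955) and the engrailed gene En2 by 0.67 (SE 0.14, edgeR adjusted p = 0.0213). The median of the list was 0.04 in the superficial and -0.10 in the deep layer.

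The layer differences of these relatives went both ways. Of other POU genes, Pou3f4 was higher in the superficial layer after saline, at 0.35 (SE 0.079). Of 6 other LIM homeodomain genes 3 were higher and 1 lower, with Lhx1 at 1.27 (SE 0.097), Lhx5 at 0.93 (SE 0.10) and Lhx6 at 3.99 (SE 0.56). Of 17 retinal ganglion cell genes 7 were lower and 1 higher, with the neurofilament genes Nefl and Nefm at -1.23 (SE 0.10) and -2.0 (SE 0.15). Of 19 patterning factors of the midbrain roof 9 were higher and 3 lower, with Otx2 at 1.65 (SE 0.090), Tcf7l2 at -2.26 (SE 0.10) and Barhl2 at -1.88 (SE 0.13). After saline 9.67% of all genes were called higher and 8.73% lower. After cbx the counts of the LIM homeodomain, retinal ganglion cell and patterning lists were 3 higher and 1 lower, 1 and 9, and 11 and 3, where 18.1% of all genes were higher and 14.1% lower.

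Markers of neuron classes also differed between layers after saline. Of 3 excitatory transporter genes 1 was lower in superficial libraries, Slc17a6 at -0.97 (SE 0.075), while Slc17a7 was at 0.61 (SE 0.48) and Slc17a8 at -0.15 (SE 0.27). Of 4 inhibitory genes 1 was higher, the GABA-synthesis gene Gad1 at 0.96 (SE 0.072), while Slc6a5 was at -1.40 (SE 0.50) and Slc32a1 at 0.21 (SE 0.12). After cbx the counts were 0 higher and 1 lower of the excitatory genes, and of the inhibitory ones Gad1 was higher and Gad2 lower, at -0.28 (SE 0.060). Of 3 tested cranial motor neuron genes 2 were lower, Prph at -1.10 (SE 0.29) and Slc18a3 at -1.49 (SE 0.50), and the sum of the 8 listed was at most 6.14 CPM in any library, with 3 of them at 0 throughout the saline deep libraries. Prph is also on the list of peripheral sensory neurons. Of 6 tested monoaminergic genes 1 was lower, Ddc at -1.65 (SE 0.20). Of 4 tested genes of thalamus and pretectum 2 were lower, Tcf7l2 and Prkcd, the latter at -0.78 (SE 0.091), and their sum was 284 to 311 CPM in saline deep and 189 to 218 CPM in saline superficial libraries. Of 5 medial habenula genes, a further place of Pou4f1, 3 were higher and 2 lower. The part of these cells in the layer differences was not tested.

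Genes with the most similar pattern were sought among 15143 genes with a symbol and a mean of at least 1 CPM, by the root mean square difference of mean-centred log2 CPM over the 14 libraries. Nearest to Pou4f2 were Tcf7l2, a Wnt-pathway transcription factor, at 0.24, the sialidase gene Neu4 at 0.24 and the ETS factor gene Etv1 at 0.29. All were lower in the superficial layer, with differences of -2.26 (SE 0.10), -3.07 (SE 0.23) and -2.20 (SE 0.074) after saline. With cbx in the superficial layer Neu4 also rose, by 0.96 (SE 0.24, edgeR adjusted p = 0.0267), while Tcf7l2 was at 0.31 (SE 0.096, edgeR adjusted p = 0.0734) and Etv1 at 0.18 (SE 0.069, edgeR adjusted p = 0.147).

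Nearest to Tfap2b was the potassium channel gene Kcnc4 at 0.10, which was also nearest to Pou4f1 at 0.14. Pou4f1 and Tfap2b were close to each other: at 0.15 only 1 of the 15143 genes was nearer to Pou4f1 than Tfap2b was. The third for Pou4f1 was Ecel1, and Tfap2b also had Rassf4 and Hcrtr1 near it. By contrast Pou4f1 and Pou4f2, of 1 family, lay 0.54 apart and 967 genes were nearer to Pou4f1.

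Pou4f3 and Onecut3 had the same first and second nearest genes, the diacylglycerol kinase gene Dgkk (0.39 and 0.44) and Gm4881 (0.39 and 0.48), and lay 0.50 apart. Onecut2 was nearest to Acan, which encodes aggrecan of perineuronal nets, at 0.22, and to Syt2 and Rasgrf2, and Tfap2a to Mrap2 at 0.24, Lims2 and Mal2. Tfap2d was nearest to Ppp1r1c at 0.42, the neurotensin gene Nts at 0.48 and Esrrb at 0.53. Onecut1 had no close gene, its nearest being C130073E24Rik at 0.61, with Rtl9 and A230006K03Rik behind it. It had only 2 to 69 counts in superficial libraries, and the part of counting error in this distance was not tested. All distances are over the same 14 libraries, in 2 layers, and are given as a description.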

How the data were processed

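RNA was measured in 14 libraries of superior colliculus, grouped by the labels' layer and treatment. The values are counts of reads per gene, whole numbers that the authors deposited, with 55359 Ensembl IDs in every library's table. The tools named in the submitters' processing notes are STAR 2.7.9d, Subread 2.0.1 with featureCounts, SAMtools 1.14 and FastQC 0.11.9. These notes list mm10 as well as GRCm39 and do not say what each served for. Whether counting used strand is not given in the sources used here; reads of a gene and an overlapping antisense gene can therefore not be told apart. Symbols were matched by ID, and exon lengths came from GENCODE M21.

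The analysis used edgeR 4.0.16 under R 4.3.3, with filterByExpr by group (20330 genes left), TMM scaling, and a robust quasi-likelihood fit of 4 group means to all 14 libraries, adjusted by the Benjamini-Hochberg method over all genes at 0.05. The fit was tested on simulated counts with known fold changes. It takes the libraries as independent, and nothing says that pools of one group came from separate litters.

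The members and gene lists were chosen with earlier results of these data known. Named were all members, up to 3 genes of a list with the smallest p in the comparison described, and the 3 genes nearest to a member in pattern (log2 CPM, prior count 2). Some genes that this rule names are not reported here. The sample titles number the replicates. Deviations of same-numbered layers of one treatment correlated at 0.182 to 0.394 in 7 of 7 pairs, so the numbers pair the layers. Those of same-numbered treatments correlated at -0.276 to -0.0167 in 6 pairs and share only a number. Alternatives were median-of-ratios size factors, 2 other low-count filters, DESeq2 1.42.0, limma-voom (limma 3.58.1), only the groups compared, a replicate block, each library left out, and both pools of one sex left out.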

Additional observations from a re-analysis of the deposited data

Results flagged for a closer look

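In the 18 sets of 4 cbx libraries (9 genes in each layer), 1 library stood apart from the other 3. Pou4f1 was at 119 CPM in cbx deep replicate 4, beside 109 to 110.5 CPM in the other cbx deep libraries, a gap of 0.866 of the whole range, above Dixon's critical value for 4 values. Chance flags about 1 in 20 such sets. This library is the deep layer of cbx pool 4, which had no Ddx3y counts, and it still lay below the saline deep libraries at 120 to 126 CPM.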

How the results depend on the processing

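Of 729 values of single genes under the alternatives, 698 kept direction and side of the threshold, 12 passed where the reported value did not, 1 no longer passed and 18 changed sign. The number of genes called with cbx in the superficial layer was 1, and 2 without a low-count filter, with a filter of 1 CPM in 3 libraries and with DESeq2 (Onecut1 added), 0 with only the groups compared, and 1 to 2 with each library left out. The interaction gave 1 call without a low-count filter. The deep cbx count was 0 under every alternative run. All sign changes were in differences that passed under no setting. For cbx in the superficial layer, Tfap2b was at 0.0018 without a low-count filter, 0.026 with a replicate block, 0.0092 without both pools of one sex and -0.032 to 0.013 with each library left out. There Pou4f1 ranged from -0.094 to 0.10 and Onecut3 from -0.025 to 0.86 with each library left out. For cbx in the deep layer, Onecut1 was at 2e-04 without both pools of one sex and -0.17 to 0.098 with each library left out, Onecut2 at -0.079 to 0.097, Onecut3 at -0.055 to 0.31 and Tfap2b at -0.013 to 0.079. The interaction was -0.20 to 0.68 for Onecut3, -0.044 to 0.35 for Tfap2a and -0.080 to 0.013 for Tfap2b. The cause was not tested.

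The number of all genes called in the superficial layer, 880, depended strongly on the setting: 142 with only the groups compared, 480 with the number as a replicate block, 140 without saline superficial replicate 2 and 91 without both pools of one sex. The pool as a replicate block called Onecut1 in the saline layer comparison, at -1.14, and changed no other call of the 9 genes. Onecut3 and Pou4f3 had 3 to 27 counts in superficial libraries, which limits their precision.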
